A study of Mus musculus with 13 samples.

Results

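Inner root sheath cells of newborn mouse back skin were picked out by their keratins. A cell belonged to the group if Krt28, Krt27, Krt25 and Krt71 together gave at least 10 unique molecular identifiers (UMIs, 1 per captured transcript) per 10,000 UMIs of the cell, with at least 2 of the 4 keratins detected and at most 1 UMI of Shh. Of 34852 cells kept from the 5 libraries of postnatal day 0 (P0), 518 met this rule (1.49%), and the whole series of 13 libraries held 86507 kept cells. The study profiled single cells of back skin by droplet 3' RNA-seq in C57BL/6 mice, wild type (WT) or Grhl3-/-, taking whole skin from embryos and separated epidermis at P0. At P0 there were 2 WT and 2 Grhl3-/- libraries from littermates, 1 male and 1 female pup for each genotype, and 1 WT library from a first experiment whose title names another version of the chemistry. Every Grhl3-/- animal had spina bifida, and the skin was taken well anterior to that defect. At P0 the epidermis was lifted off with dispase overnight, so only the follicle parts that came away with it could be captured. Libraries are named here WT 1, WT 2, Grhl3-/- 1, Grhl3-/- 2 and first WT, and where 5 values follow each other they stand in this order.

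The inner root sheath is the tube of hardened epithelium that surrounds and moulds the growing hair shaft. Its layers (Henle's layer, Huxley's layer and the cuticle) descend from matrix cells of the hair bulb, and their cells fill with a characteristic group of keratins and with trichohyalin before they cornify and break down in the upper follicle. GATA3, CUX1, DLX3 and MSX2 are transcription factors known from the matrix and the early sheath, and back-skin follicles of the newborn mouse are still being built. Grhl3 encodes a Grainyhead-like transcription factor needed for the epidermal barrier.

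The keratins of the rule sit in 2 clusters. Krt28, Krt27 and Krt25 encode type I keratins and lie in 1 cluster with Krt26 on mouse chromosome 11 (GRCm38, minus strand), with Krt28 at chr11:99364872-99374903. Krt71 and Krt73 encode type II keratins that pair with them and lie on chromosome 15, with Krt73 at chr15:101793308-101802346. The 250 bases before the RefSeq start of these 5 genes (GRCm38.p6, minus strand, printed 5′ to 3′ in the direction of the gene) are shown because their transcripts define the cells or, for Krt73, mark them without having been used to choose them. Capitals mark the TATA box letters TATAAA and the GATA factor letters AGATAA.
Krt28: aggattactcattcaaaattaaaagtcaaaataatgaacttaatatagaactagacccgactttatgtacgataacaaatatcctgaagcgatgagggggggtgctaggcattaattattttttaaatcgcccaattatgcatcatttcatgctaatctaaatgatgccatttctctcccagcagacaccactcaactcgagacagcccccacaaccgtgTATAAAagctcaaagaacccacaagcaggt
Krt27: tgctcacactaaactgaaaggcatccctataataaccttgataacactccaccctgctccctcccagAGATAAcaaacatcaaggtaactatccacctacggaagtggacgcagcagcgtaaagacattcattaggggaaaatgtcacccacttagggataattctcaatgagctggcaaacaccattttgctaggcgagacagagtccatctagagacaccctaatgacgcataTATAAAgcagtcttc
Krt25: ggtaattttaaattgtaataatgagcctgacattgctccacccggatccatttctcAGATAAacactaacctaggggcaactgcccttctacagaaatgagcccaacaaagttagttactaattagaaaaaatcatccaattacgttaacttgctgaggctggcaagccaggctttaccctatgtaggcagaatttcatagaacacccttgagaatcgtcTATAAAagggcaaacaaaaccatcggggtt
Krt71: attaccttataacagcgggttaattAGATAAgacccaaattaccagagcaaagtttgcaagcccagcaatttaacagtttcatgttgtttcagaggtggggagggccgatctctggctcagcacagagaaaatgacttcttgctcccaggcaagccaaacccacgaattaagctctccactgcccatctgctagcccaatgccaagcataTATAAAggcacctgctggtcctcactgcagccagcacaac
Krt73: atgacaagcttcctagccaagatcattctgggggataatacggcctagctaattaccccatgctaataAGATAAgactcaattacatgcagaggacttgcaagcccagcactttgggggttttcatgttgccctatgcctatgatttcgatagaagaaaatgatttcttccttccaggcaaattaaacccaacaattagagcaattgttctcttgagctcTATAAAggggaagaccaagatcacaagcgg
These windows are chr11:99374904-99375153 (Krt28), chr11:99351119-99351368 (Krt27), chr11:99322952-99323201 (Krt25), chr15:101743098-101743347 (Krt71) and chr15:101802361-101802610 (Krt73). TATAAA stood in all 5, beginning 30 bases before the start in Krt28, Krt25 and Krt73, 40 bases before it in Krt71 and 15 bases before it in Krt27. AGATAA stood in Krt27, Krt25, Krt71 and Krt73, beginning between 182 and 225 bases before the start, and not in Krt28. The homeobox letters TAATTG, read as CAATTA on the printed strand, were found in Krt28 (118 bases before the start), Krt25 (113) and Krt73 (172 and 58), and the LEF/TCF letters CTTTGA were found once, in Krt28 as TCAAAG. Both strands were searched and no match overlapped a match of another motif. The windows of Krt26 and Krt72 were searched too and are not printed, and neither held AGATAA. Krt26 held TATAAA (158 and 30 bases before the start) and CAATTA (85). Krt72 held only TTTATA, the reverse complement of TATAAA, 203 bases before the start. Of 32851 promoters of the same length, 12.4% held TATAAA, 9.99% AGATAA, 7.17% TAATTG and 13.8% CTTTGA on either strand. Such matches describe the letters and are not evidence of binding.

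The levels of the chosen keratins follow from the rule and are given as a description. UMIs were summed over the cells of a library and scaled to a total of 1000000 (counts per 1000000, CPM). Krt28, found in 517 of the 518 cells, stood at 1078 and 1123 CPM in the WT libraries, 1089.7 and 1086 CPM in the Grhl3-/- libraries and 1629 CPM in the first WT library. Krt27 ranged from 172 to 218 CPM and Krt25 from 185 to 513 CPM. Krt71, the type II partner, was uneven, at 227 and 133 CPM in the WT libraries, 618 and 402 CPM in the Grhl3-/- libraries and 4.03 CPM in the first WT library, and was detected in 173 of the 518 cells. Most cells lay near the limit, since 273 had a summed keratin level under 15 UMIs per 10,000 and 73 reached 30 or more. The median was 14.4 and the highest cell reached 200.2. Just inside the limit, between 10 and 11 UMIs per 10,000, were 9, 10, 24, 29 and 3 cells, and just outside it, between 9 and 10, were 16, 10, 39, 42 and 10 cells. The rule is therefore a cut through a range of keratin levels rather than through a gap.

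Depth in the chosen cells was close to that of the libraries as a whole. The 5 P0 libraries held 49245953 to 107038146 UMIs, with a median per kept cell of 7448 to 9976, and the chosen cells had medians of 6814.5 to 9424 UMIs. Summed over the chosen cells this gave 616850 and 731393 UMIs for WT 1 and WT 2, 1864724 and 1481913 for the Grhl3-/- libraries and 248020 for the first WT library. The 4 littermate libraries shared 57 to 99 cell barcodes in each pair (0.829% to 1.44% of the smaller library) and no barcode of a chosen cell. The first WT library shared none, but its title names another version of the chemistry, so its lack of shared barcodes is no check. Free keratin RNA was present in the droplets. At least 1 UMI of the 4 was held by 6.6%, 8.79%, 14.2%, 10.0% and 5.41% of Langerhans cells or macrophages, which should lack these keratins. The median depth of these cells was 6024 to 8360 UMIs, and none of them passed the rule. Among cells rich in melanocyte transcripts 15.6%, 10.5%, 17.2%, 24.0% and 12.0% held such a UMI, and 0, 2, 1, 5 and 0 passed. In both cell sets both Grhl3-/- libraries lay above every WT library. Of the 518 cells, 17 were among the 5% of kept cells with the highest doublet scores of their library, a share set in advance. Of the same 518 cells, 8 held at least 10 UMIs of the melanocyte list and none held 10 of the Langerhans cell or T cell list. At least 10 UMIs of the suprabasal list were held by 212 of them (30, 31, 80, 47 and 24 by library), which was 31.5% to 75.0% of the chosen cells of a library, against 41.5% to 92.1% of the other cells, with the highest share of both in the first WT library.

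Other genes known from the inner root sheath were high in the chosen cells. Krt73 stood at 68.1 and 134 CPM in the WT libraries, 195 and 158 CPM in the Grhl3-/- libraries and 286 CPM in the first WT library, against 5.15 to 10.1 CPM in all other kept cells. Dlx3 stood at 186, 247, 203, 201 and 145 CPM in the 5 libraries, against 14.2 to 50.8 CPM elsewhere. Msx2 was at 148, 163, 118, 165 and 222 CPM, against 21.8 to 59.6 CPM. For these genes every library lay above every value in the other cells. Cldn10, a claudin of ion-permeable tight junctions, was at 120.0, 111, 104, 127 and 157 CPM, against 3.04 to 36.7 CPM, and Mt4, a metallothionein of stratified epithelia, at 157, 186, 225, 172 and 121 CPM, against 7.66 to 66.3 CPM. Gata3, which directs inner root sheath fate, was at 549.6, 541, 439.7, 528 and 286 CPM, against 147 to 248 CPM, and Cux1 at 605, 602, 489, 485 and 468 CPM, against 92.3 to 219.8 CPM. Ctsc, a lysosomal peptidase, was at 177, 212, 221, 128 and 117 CPM, against 33.0 to 108 CPM. Within each library all of these were higher in the chosen cells, although the first WT library came close for Ctsc, at 117 against 108 CPM. With the keratin limit raised to 20 UMIs per 10,000, the median log2 ratio over the other cells was 0.32 in place of 2.03 for Cldn10 and 0.71 in place of 2.05 for Mt4.

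Transcripts of the terminal sheath were low in the same cells. Tchh, which encodes trichohyalin, stood at 9.73, 28.7, 16.1, 35.1 and 8.06 CPM in the chosen cells and at 7.29 to 15.1 CPM in the other cells, so the ranges overlapped. Krt26 did not exceed 4.03 CPM in any library, Krt72 did not exceed 2.73 CPM, and Krt74, annotated as a pseudogene in this mouse build, was listed at 0. Padi3, a peptidylarginine deiminase that acts on trichohyalin, ranged from 0 to 3.75 CPM, and Tgm3, a transglutaminase, from 0 to 10.9 CPM. Markers of the early sheath were thus high in the chosen cells, whereas Krt26, Krt72 and Padi3 were at or near 0 and Tgm3 was low. Dlx3, Msx2, Cldn10 and Mt4 were chosen as markers with earlier results of these data known. Their levels are therefore no independent check of the name inner root sheath.

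Over the list of 17 sheath proteins and factors, 11 had a mean level of at least 10 CPM, and 9 of these were higher in the chosen cells than in the other cells in all 5 libraries, with none lower. The background was broad, since 22.9% of the 7692 genes at that level were higher in all 5 libraries and 19.3% lower. The chosen cells were compared also with the 4921 kept cells that held at least 2 Shh UMIs, because Shh marks part of the hair matrix. Of these cells 51.2%, 44.1%, 36.7%, 36.6% and 87.5% held at least 10 UMIs of the suprabasal list. The melanocyte list summed to 1098, 681, 440, 760 and 491 CPM in them. Free Shh RNA was not checked, so this set cannot be taken as matrix cells only. Against these cells 9 of 11 sheath factors were again higher in all 5 libraries (background 18.5% higher and 19.7% lower of 7591 genes). Both counts of 9 include Dlx3, Msx2, Cldn10 and Mt4, which were chosen as markers with earlier results of these data known. Because the rule chose cells by their keratins, none of these differences was tested.

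**Figure D1:**
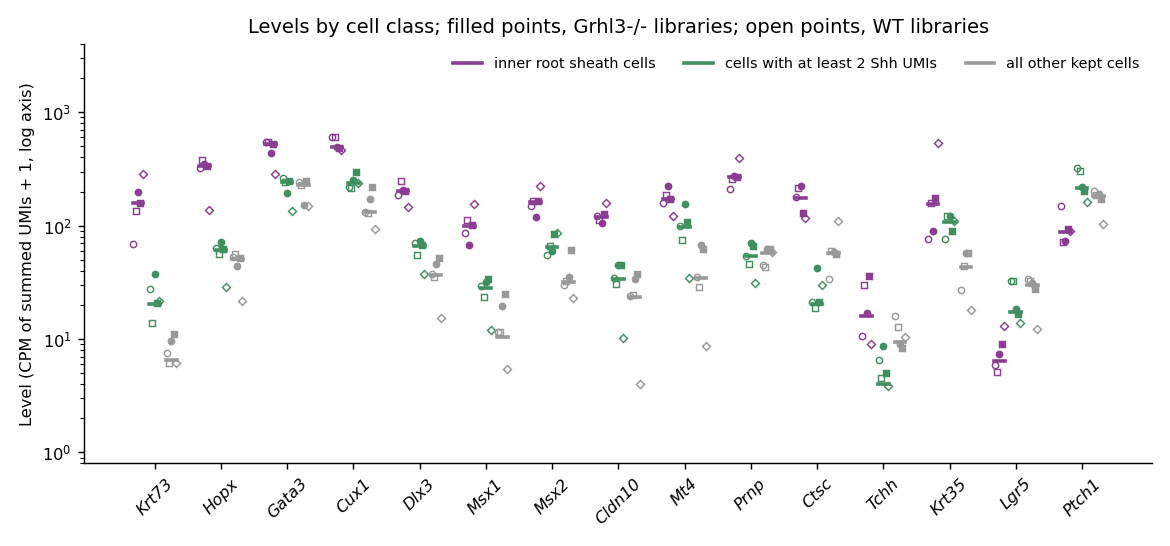
Levels of 15 genes (CPM of summed UMIs plus 1, log axis) in inner root sheath cells (purple), cells with at least 2 Shh UMIs (green) and all other kept cells (grey); each point is 1 of the 5 P0 libraries (circle, replicate 1; square, replicate 2; diamond, first WT; filled, Grhl3-/-; open, WT) and bars are medians. Krt73 in inner root sheath cells ranged from 68.1 to 286 CPM, above its 5.15 to 10.1 CPM in other cells, while in each library Lgr5 and Ptch1 lay lower in inner root sheath cells than in cells with Shh.

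The 20 genes with the largest ratio over the other cells, ranked by the lowest of the 5 libraries among genes of at least 50 CPM, included the 3 keratins Krt25, Krt28 and Krt27 and, after them, Krt73. Hopx, a homeodomain-only cofactor of stem and differentiating epithelia, came next at 319, 381, 350.2, 337 and 137 CPM, against 20.5 to 55.0 CPM. Prnp, the prion protein gene, was at 208, 258, 272, 269 and 395 CPM, against 42.3 to 61.8 CPM. Msx1, a homeobox partner of Msx2 in the hair matrix, was at 85.9, 112, 66.0, 99.9 and 153 CPM, against 4.49 to 24.1 CPM. Arg2, the mitochondrial arginase, ranged from 180.2 to 309 CPM in the chosen cells and from 39.7 to 71.6 CPM elsewhere. Alox12e, an epidermal lipoxygenase, ranged from 80.6 to 133 CPM against 14.4 to 29.5 CPM, and Acaa2, a thiolase of mitochondrial fatty acid oxidation, from 267 to 685 CPM against 103 to 287 CPM. Pvrl4, which encodes the adhesion protein nectin-4, ranged from 133 to 220.1 CPM against 25 to 65.1 CPM. Neo1, the receptor neogenin, ranged from 92.7 to 122 CPM against 17.8 to 39.7 CPM. Paqr5, a progestin receptor, Trim2, a ubiquitin ligase, and Rhov were also among the 20, as were Dlx3, Cldn10, Mt4 and Msx2.

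Krt14 and Krt5, keratins of the outer root sheath and basal layer, were lower than in the other cells in all 5 libraries. Krt14 stood at 431, 234, 539, 246 and 1806 CPM, against 2358 to 11184 CPM in the other cells, and Krt5 at 801, 554, 762, 541 and 952 CPM, against 1526 to 3796 CPM. Krt17, of the same list, was not low throughout, at 918, 875, 1089, 616 and 6814 CPM, against 1750.0, 1832, 1715, 1782 and 4148 CPM in the other cells, and in the first WT library it was higher in the chosen cells. Sox9, a factor of the outer root sheath and bulge, was at 29.2, 8.20, 24.1, 24.3 and 32.3 CPM, against 69.1 to 182 CPM. Of the 12 outer root sheath genes, 8 were lower in all 5 libraries than in the other cells and 11 were lower than in cells with Shh, and none was higher in either comparison. Over all genes 19.3% of 7692 were lower than in the other cells and 19.7% of 7591 lower than in cells with Shh. All 7 melanocyte genes and all 8 measured Langerhans cell or macrophage genes were lower than in the other cells in every library. The suprabasal keratins Krt10 and Krt1 were present, and in all 5 libraries lower than in the other cells. Krt10 stood at 318, 2008, 165, 265 and 782 CPM and Krt1 at 209, 1339, 142, 234 and 403 CPM, highest in WT 2. At least 50 Krt10 UMIs were held by 0, 2, 1, 3 and 0 of the chosen cells.

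The hair matrix genes divided. Of 13 measured, 5 were higher than in cells with Shh in all 5 libraries (Dlx1, Dlx2, Dlx4, Msx1 and Bambi) and 4 were lower (Cdh3, Bmp4, Ptch1 and Wnt10b), with a median log2 ratio of -0.0089. Of all 7591 genes 18.5% were higher and 19.7% lower. Dlx2, a homeobox gene of the Distal-less family, was at 61.6, 58.8, 41.8, 47.9 and 113 CPM, against 15.6 to 21.5 CPM in cells with Shh, and its relative Dlx4 at 45.4, 42.4, 39.1, 47.2 and 80.6 CPM, against 7.62 to 20.1 CPM. Lef1, the nuclear effector of Wnt signals in the matrix, was at 125, 119, 79.9, 111 and 92.7 CPM, against 95.3 to 112 CPM, so it overlapped. Krt35, a hair shaft keratin, was at 74.6, 156, 88.5, 174 and 532 CPM, against 74.8 to 120.5 CPM. At least 10 Krt35 UMIs were carried by 22 of the 518 cells.

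Hedgehog response genes were low beside the cells with at least 2 Shh UMIs. Ptch1, the Hedgehog receptor and a target of the pathway, stood at 149, 71.1, 72.4, 91.8 and 88.7 CPM in the chosen cells and at 323, 304, 216, 201 and 162 CPM in cells with Shh. In each library the chosen cells lay below the cells with Shh. The rule limited Shh itself, so cells with at least 2 Shh UMIs were left out by construction. Of 7 measured Hedgehog genes, 5 were lower than in cells with Shh in all 5 libraries and none was higher. Of all 7591 genes 19.7% were lower and 18.5% higher.

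Wnt genes showed the same split with exceptions. Of 29 measured, 19 were lower than in cells with Shh in all 5 libraries and 3 were higher. Of all 7591 genes 19.7% were lower and 18.5% higher, so the count of higher Wnt genes was not above the background. Lgr6, a receptor for R-spondin and a follicle stem cell marker, was at 27.6, 9.57, 15.6, 14.2 and 16.1 CPM against 145, 115, 82.6, 62.8 and 74.6 CPM, and Axin2, a feedback target of Wnt, was at 50.3, 38.3, 20.9, 15.5 and 20.2 CPM against 108, 91.3, 42.2, 36.9 and 27.3 CPM. The 3 higher genes were Lgr4, Wnt5a and Nkd2. Wnt5a, a ligand of non-canonical Wnt signalling, was at 21.1, 20.5, 18.2, 22.3 and 32.3 CPM against 7.86, 7.25, 12.0, 14.2 and 10.5 CPM, and Nkd2, an inhibitor of the pathway, was at 19.5, 27.3, 26.8, 14.8 and 16.1 CPM against 7.31, 4.2, 10.2, 6.97 and 2.89 CPM. Wnt11, another non-canonical ligand, had a mean over both classes below 10 CPM and so was not counted. It stood at 8.11, 6.84, 18.8, 14.2 and 28.2 CPM, against 0.299 to 2.68 CPM.

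Of 9 measured Notch genes, 3 were higher than in cells with Shh in all 5 libraries (Notch1, Notch3 and Heyl) and 1 was lower (Jag1). Of all 7591 genes 18.5% were higher and 19.7% lower, so the count of lower Notch genes was not above the background. Notch1 was at 156, 215, 243, 219 and 109 CPM, against 153, 128, 161, 141 and 57.2 CPM in cells with Shh. Notch3 was at 21.1, 30.1, 25.7, 22.3 and 20.2 CPM, against 12.4, 9.16, 9.37, 8.21 and 4.2 CPM, and Heyl, a transcriptional target of Notch, was at 21.1, 21.9, 14, 22.3 and 44.4 CPM, against 6.49, 5.09, 4.85, 5.56 and 4.46 CPM. The receptor Notch2, higher in 4 of the 5 libraries, was at 34.0, 28.7, 6.97, 7.42 and 4.03 CPM, against 29.4, 10.6, 8.76, 6.46 and 1.84 CPM. Jag1, a ligand, was at 21.1, 17.8, 15, 16.2 and 0 CPM, against 26.9, 20.6, 15.2, 17.7 and 6.83 CPM. Of 13 BMP genes, 3 were higher than in cells with Shh in all 5 libraries (Id1, Id3 and Bambi) and 5 were lower (Bmp2, Bmp4, Bmp7, Bmpr2 and Smad5), where 18.5% of 7591 genes were higher and 19.7% lower, so the count of higher genes was near the background. Bmp2, a ligand made beside Shh in the matrix, was at 13.0, 24.6, 22.0, 26.3 and 48.4 CPM against 148, 189.8, 133, 136 and 156 CPM.

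Cell cycle genes were high in the chosen cells. Genes of the G2 and M phases summed to 11906, 9677, 11250, 10567 and 11733 CPM, against 5532 to 7441 CPM in the other cells. Of 53 such genes 45 were higher in all 5 libraries, with none lower, where 22.9% of 7692 genes were higher and 19.3% lower. Cells with Shh were also above the other cells of their own library, with sums of 7554 to 8475 CPM. Against them 30 of 54 were higher in all 5 libraries and none lower (background 18.5% higher of 7591 genes). Mki67, the proliferation antigen, was at 196, 213, 205, 239.6 and 157 CPM against 105, 98.1, 119, 135 and 47.0 CPM. Genes of the S phase summed to 3179, 3607, 3262, 4307 and 4145 CPM, against 1464 to 2983 CPM in the other cells. Of 40 such genes 29 were higher than in the other cells in every library, and 19 of 40 were higher than in cells with Shh. The metallothionein genes Mt1 and Mt2, which bind zinc and copper, were at 2735, 2093, 1585, 2147 and 1629 CPM and 3960.4, 2990.2, 2076, 2909 and 2048 CPM, above the other cells of their own library in all 5. Free RNA can add to any of these levels, and the part it has in them was not tested.

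The chosen cells were not alike in their 4 keratins. Krt25 and Krt71 together gave at least 3 UMIs in 234 cells (45.2%) and fewer in 284. The former group held 29, 27, 107, 65 and 6 cells, or 36.3%, 36.0%, 58.8%, 43.6% and 18.8% of the chosen cells of each library. These are ranges of a count and not types, and a deeper cell passes the limit of 3 more easily. Genes are named below because they headed the comparison between these groups, after their values were seen.

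Cells with more Krt25 and Krt71 held more of some sheath genes and less of others. Of 11 measured sheath proteins and factors, 4 were higher in them in all 5 libraries (Gata3, Tchh, Ctsc and Ovol1) and 3 were lower (Cux1, Cldn10 and Msx2), with a median log2 ratio of 0.10, where 9.67% of 7312 genes were higher and 9.33% lower. Krt73 was at 152, 268, 283, 305 and 937 CPM in them, against 22.5, 41.6, 30.8, 29.1 and 98.7 CPM in the rest. Ctsc was at 339.9, 359, 309, 261 and 487 CPM against 87.7, 111, 55.4, 11.4 and 10.4 CPM. Tchh was at 23.0, 67.0, 24.7, 73.6 and 36.1 CPM against 2.51, 2.31, 0, 1.27 and 0 CPM, so that most trichohyalin transcripts of the chosen cells came from them. Dmkn, which encodes the secreted epidermal protein dermokine, was at 1134, 1964, 1784, 1484 and 2235 CPM against 411, 349, 372, 165 and 654 CPM, and Cdkn1a, the cell cycle inhibitor p21, was at 202, 402, 212, 218 and 559 CPM against 72.7, 111, 89.3, 72.2 and 125 CPM. In all 5 libraries each was higher in the cells with more Krt25 and Krt71. Of 8 measured desmosome genes 6 were higher in all 5 libraries (Pkp1, Pkp3, Perp, Jup, Dsp and Dsg1a), and none was lower. Markers of other epidermal cells moved with this split, as 5 of 8 suprabasal genes (Klf4, Sbsn, Dmkn, Krtdap and Calm4, median log2 ratio 1.46) and 3 of 4 upper follicle genes (Plet1, Krt79 and Cst6, median 1.63) were higher in all 5 libraries. At least 10 UMIs of the suprabasal list were held by 150 of the 234 cells with more Krt25 and Krt71 and by 62 of the 284 others. The part of these markers in the split was not tested. Notch1, Notch3 and Heyl were higher in the same cells in all 5, with Notch1 at 198, 312, 297, 320.4 and 162 CPM against 133, 148, 143, 131 and 93.5 CPM. At least 10 UMIs of Krt79, a keratin of the upper follicle, were carried by 46 of these 234 cells and 14 of the 284 others.

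The cells with less Krt25 and Krt71 held more of several matrix and S-phase genes. Of 12 measured hair matrix genes, 6 were lower in the cells with more Krt25 and Krt71 in all 5 libraries (Dlx2, Msx1, Cdh3, Dlx4, Ptch1 and Hoxc13) and 1 was higher (Tfap2a). Cldn10 was at 153, 145, 234, 201 and 192 CPM in them, against 59.7, 60.3, 33.7, 41.9 and 36.1 CPM in the cells with more. Odc1, the first enzyme of polyamine synthesis, was at 100.2, 194, 268, 276 and 275 CPM against 36.7, 40.2, 90.5, 57.7 and 72.1 CPM, and Ccnd2, which encodes cyclin D2, was at 2465, 2108, 1956, 2169.5 and 2150.2 CPM against 1603, 620.1, 869, 992 and 667 CPM. Mt2 was at 4462, 4487, 4519, 4518 and 2607 CPM against 3041, 818, 770.4, 1077 and 108 CPM. All of these were lower in the cells with more Krt25 and Krt71 in every library. Of 42 S-phase genes, 12 were lower in the cells with more in all 5 libraries and none was higher. Of 54 genes of G2 and M, 1 was lower and none higher, where 9.67% of 7312 genes were higher and 9.33% lower. The genes of G2 and M summed to 9227, 10846, 11939, 10693 and 12113 CPM in the cells with more. Their sums in the cells with less were 13367, 8872, 9961, 10456 and 11623 CPM, above those only in WT 1. Dcn, the proteoglycan decorin, often taken as a fibroblast gene, was at 1255, 938, 1533, 1971 and 1382 CPM against 753, 355, 237, 423 and 216 CPM, and it was the 1 gene of 8 on the fibroblast list with a mean of at least 10 CPM. Dlx3 was at 185, 252, 199, 179.9 and 151 CPM against 188, 241, 206, 225 and 126 CPM, with no common direction. Of the 22 cells with at least 10 Krt35 UMIs, 18 were among the cells with less and 4 among those with more.

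**Figure D2:**
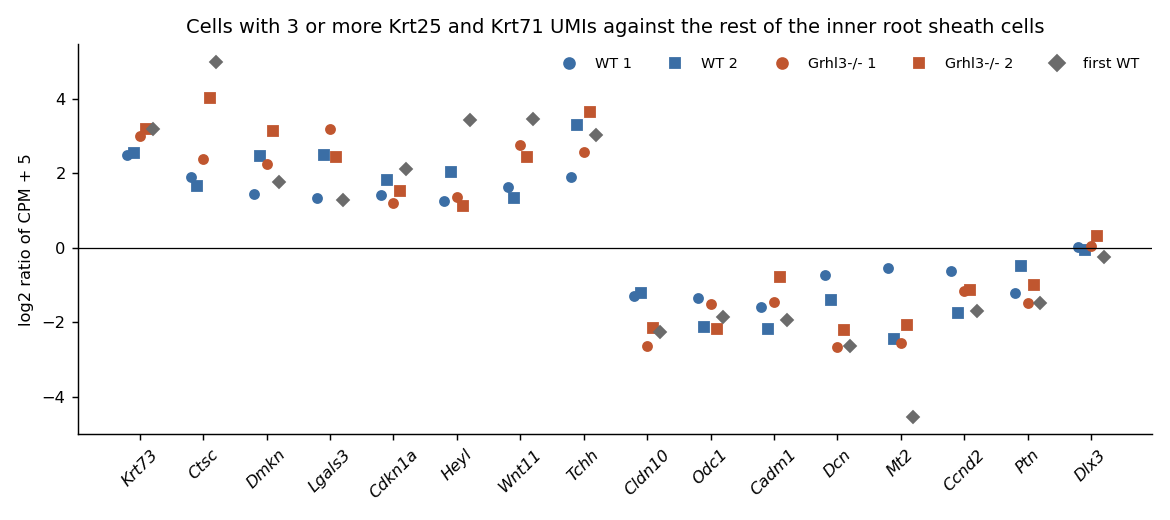
Log2 ratio of the level (CPM plus 5) in inner root sheath cells with at least 3 Krt25 and Krt71 UMIs to that in the other inner root sheath cells, for 16 genes chosen after their values were seen; each point is 1 P0 library and the line at 0 marks equal levels. The first 8 genes lay above 0 in all 5 libraries, the next 7 below it, and Dlx3 on both sides.

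The next question was whether the cells differ in number between genotypes. They made up 1.18% of kept cells in WT 1 (95% exact Clopper-Pearson interval 0.939% to 1.47%), 1.14% in WT 2 (0.896% to 1.42%), 1.99% in Grhl3-/- 1 (1.71% to 2.29%) and 2.05% in Grhl3-/- 2 (1.73% to 2.40%). These intervals cover counting error only. Both Grhl3-/- libraries lay above both WT libraries, with means of 1.16% ± 0.0313 (SD, n = 2) in WT and 2.02% ± 0.0412 (SD, n = 2) in Grhl3-/-, a difference of 0.856 percentage points. The exact two-sided permutation test gave p = 0.33, the smallest that 2 against 2 libraries allow, so this design could not reach 0.05. The first WT library held 0.633% (0.433% to 0.892%), the lowest share of all. With that library added to WT the difference was 1.03 points (exact permutation p = 0.20).

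Related quantities were read beside the share. Other cells with at least 1 UMI of the 4 keratins made up 22.4% and 20.4% in WT, 29.6% and 35.5% in Grhl3-/- and 14.9% in the first WT library. Langerhans cells or macrophages with such a UMI were also more frequent in both Grhl3-/- libraries, as given above. The part of free keratin RNA in the share was not tested. The number of chosen cells per 100 cells with at least 2 Shh UMIs was 9.29 and 6.66 in WT, 15.3 and 10.6 in Grhl3-/- and 9.52 in the first WT library. Cells with Shh themselves were 12.7% and 17.1% of kept cells in WT and 13.0% and 19.4% in Grhl3-/-, so the genotypes overlapped. With each cell thinned to 3000 UMIs, which left out no cell, the share was 1.44% ± 0.270 (SD, n = 2) in WT and 3.08% ± 0.222 (SD, n = 2) in Grhl3-/-. Cells with at least 3 UMIs of Krt25 and Krt71 were 36.1% ± 0.177 (SD, n = 2) of the chosen cells in WT and 51.2% ± 10.7 (SD, n = 2) in Grhl3-/-. Both keratins are part of the rule, so this share is a description and not a test. Its limit is a raw count, and the median UMIs of the chosen cells were 7198.5 and 8954 in WT and 9269 and 9424 in Grhl3-/-. A share of captured cells cannot tell more sheath cells in the skin from more of the follicle released with the epidermis.

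**Figure D3:**
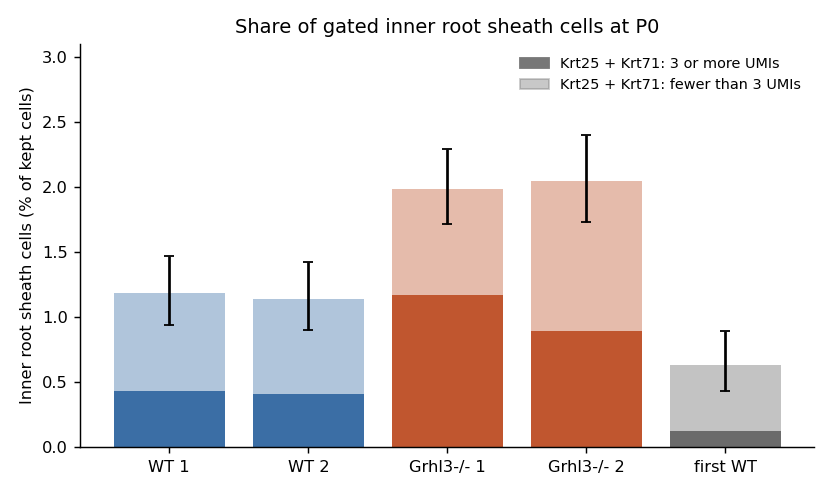
Inner root sheath cells as a share of kept cells (%) in each P0 library; error bars are 95% Clopper-Pearson intervals of the whole share, and the dark and light parts of a bar are cells with at least 3 and with fewer than 3 UMIs of Krt25 and Krt71. The Grhl3-/- bars reach 1.99% and 2.05%, the WT bars 1.18% and 1.14% and the first WT library 0.633%.

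Gene levels in the chosen cells were then compared between genotypes, with UMIs summed per library and edgeR's quasi-likelihood test (Benjamini-Hochberg adjusted over 7722 genes, threshold 0.05). Grhl3 itself was sparse, at 6.48 and 16.4 CPM in the WT libraries, 9.12 and 6.07 CPM in the Grhl3-/- libraries and 12.1 CPM in the first WT library. Whether the counted 3' ends lie within the deleted part is not given in the sources used here, so this level is no check of the labels. Its log2 fold change in the chosen cells was -0.57 ± 0.53 (SE, adjusted p = 0.678). In the other cells Grhl3 was at 7.0 and 8.21 CPM in WT and 2.29 and 2.76 CPM in Grhl3-/-, where it fell (edgeR log2 fold change -1.49 ± 0.19, SE, adjusted p = 0.00665). The related genes Grhl1 (log2 fold change -0.092 ± 0.21, SE, adjusted p = 0.888) and Grhl2 (-0.11 ± 0.29, SE, adjusted p = 0.902) did not pass the test either. A summed level cannot tell fewer cells with a transcript from less of it per cell.

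In all, 52 genes passed (0.673% of those tested), 24 higher (0.311%) and 28 lower (0.363%) in Grhl3-/-, and 1117 had an unadjusted p under 0.05. None of the sheath markers outside the rule was among them. Of the 11 sheath proteins and factors tested, 0 passed, with a median log2 fold change of -0.11 against -0.0068 over all genes. Gata3 had a log2 fold change of -0.14 ± 0.15 (SE, adjusted p = 0.706), Dlx3 of -0.072 ± 0.17 (SE, adjusted p = 0.891), Cux1 of -0.28 ± 0.13 (SE, adjusted p = 0.378) and Krt73 of 0.82 ± 0.25 (SE, adjusted p = 0.192). The 42 S-phase genes and 54 genes of G2 and M gave 0 calls as well, as did the 8 desmosome genes, 21 Wnt genes and 13 BMP genes. A p above the threshold does not show that these levels were equal.

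Heat shock genes were among the largest increases. Hspa1a, an inducible HSP70 chaperone (chr17:34969190-34972156), stood at 13.0 and 20.5 CPM in WT and 166 and 182 CPM in Grhl3-/-, with 20.2 CPM in the first WT library (log2 fold change 3.38 ± 0.25, SE, adjusted p = 0.00014). Hspa1b, its near-identical neighbour (chr17:34956436-34959238), stood at 8.11 and 5.47 CPM and 45 and 49.3 CPM, with 4.03 CPM in the first WT library (2.83 ± 0.37, SE, adjusted p = 0.00788). For both genes the Grhl3-/- libraries lay above all 3 WT libraries. Reads of the pair can be shared between them, so their values are uncertain as separate genes. Of the 24 measured genes of a list of tissue dissociation stress, 4 rose (Hspa1a, Hspa1b, Fosb and Gadd45b) and Hspa8 fell. Of all 7722 genes 0.311% rose and 0.363% fell. Fosb, an immediate early factor, stood at 3.24 and 8.20 CPM in WT and 26.8 and 35.1 CPM in Grhl3-/- (log2 fold change 2.39 ± 0.45, SE, adjusted p = 0.0408). Gadd45b, a stress-induced growth arrest gene, stood at 48.6 and 49.2 CPM and 101 and 126 CPM (1.24 ± 0.21, SE, adjusted p = 0.0319), and Hspa8, the constitutive HSC70 chaperone, at 1295 and 1620.2 CPM and 809 and 839 CPM (-0.79 ± 0.13, SE, adjusted p = 0.0247). The list's median log2 fold change was 0.50 against -0.0068 over all genes, and the part of cell dissociation in these values was not tested. Ppp1r15a, which restarts translation after stress, stood at 21.1 and 10.9 CPM and 51.5 and 54.0 CPM (1.78 ± 0.33, SE, adjusted p = 0.0379).

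Tpi1 and Ldha also rose. Tpi1, triosephosphate isomerase, stood at 159 and 129 CPM in WT and 432 and 396 CPM in Grhl3-/- (log2 fold change 1.56 ± 0.18, SE, adjusted p = 0.00407). Ldha, lactate dehydrogenase A, stood at 198 and 163 CPM and 497 and 469.7 CPM (1.46 ± 0.17, SE, adjusted p = 0.00407), and the first WT library, at 508 CPM, lay above both genotypes. Named after their values were seen, Pgam1 (0.99 ± 0.15, SE, adjusted p = 0.0214) and Aldoa (1.07 ± 0.19, SE, adjusted p = 0.0319), both enzymes of glycolysis, rose too, whereas Eno1, another, did not pass (0.87 ± 0.23, SE, adjusted p = 0.127). Ldha was the 1 gene of 10 measured hypoxia response genes to pass, where 0.673% of all 7722 genes passed, and the median of those 10 was 0.85. Tpi1 in the first WT library, at 319 CPM, was also nearer to the Grhl3-/- level.

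Other increases included Hist3h2a and Hist1h1d. Hist3h2a, which encodes a histone H2A with a polyadenylated transcript, stood at 50.3 and 75.2 CPM in WT and 204 and 252 CPM in Grhl3-/- (log2 fold change 1.88 ± 0.21, SE, adjusted p = 0.00407), and Hist1h1d, a linker histone, at 16.2 and 21.9 CPM and 57.4 and 53.3 CPM (1.56 ± 0.28, SE, adjusted p = 0.0379). Gm8730 and Gm10093, both annotated as processed pseudogenes, had log2 fold changes of 2.75 ± 0.17 (SE, adjusted p = 4.35e-05) and 3.34 ± 0.57 (SE, adjusted p = 0.0319). Gm8730 stood at 209 and 297 CPM and 1787 and 1547 CPM, and reads of a processed pseudogene can belong to its parent gene. The non-coding Gm26825 had a log2 fold change of 1.68 ± 0.30 (SE, adjusted p = 0.0349).

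Among the decreases were a stress keratin and genes of Notch signalling. Krt16, a keratin of wounded epidermis and of the companion layer, stood at 55.1 and 56.1 CPM in WT, 1.61 and 4.05 CPM in Grhl3-/- and 40.3 CPM in the first WT library (log2 fold change -4.28 ± 0.40, SE, adjusted p = 0.00107). Of 9 measured Notch genes, 2 fell and none rose, where 0.363% of all 7722 genes fell and 0.311% rose. Notch2, a receptor, stood at 34.0 and 28.7 CPM in WT and 6.97 and 7.42 CPM in Grhl3-/- (-2.07 ± 0.36, SE, adjusted p = 0.0335), and the first WT library, at 4.03 CPM, lay below both. Lfng, a glycosyltransferase that tunes Notch receptors, stood at 45.4 and 28.7 CPM and 8.58 and 8.77 CPM, with 60.5 CPM in the first WT library (-2.03 ± 0.36, SE, adjusted p = 0.0349). In the other cells Notch2 fell as well (edgeR log2 fold change -1.78 ± 0.37, SE, adjusted p = 0.0204), while Lfng did not pass there (-0.25 ± 0.29, SE, adjusted p = 0.565). Zbtb16, the glucocorticoid-responsive factor PLZF, stood at 51.9 and 52.0 CPM and 10.7 and 4.05 CPM and was at 0 in the first WT library (-2.70 ± 0.38, SE, adjusted p = 0.0133). It was the 1 call among 11 genes of the glucocorticoid response list.

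The other large decreases had varied roles. Ahnak, a giant scaffold protein, stood at 916 and 425 CPM in WT and 184 and 163 CPM in Grhl3-/- (log2 fold change -1.92 ± 0.29, SE, adjusted p = 0.0213), and Dst, which encodes dystonin, the hemidesmosomal plaque protein, at 102 and 82.0 CPM and 21.5 and 25.6 CPM (-1.93 ± 0.25, SE, adjusted p = 0.0077). Lmo7, an adherens junction protein, had a log2 fold change of -1.73 ± 0.29 (SE, adjusted p = 0.0307) and Pdzd2 of -1.50 ± 0.18 (SE, adjusted p = 0.00431). Pdzd2 stood at 266 and 215 CPM and 82.6 and 83.0 CPM, with 48.4 CPM in the first WT library. Tnrc6a, of the microRNA silencing complex (-1.94 ± 0.36, SE, adjusted p = 0.0405), Anxa8 (-1.57 ± 0.29, SE, adjusted p = 0.0373), Otulin, a linear deubiquitinase (-1.51 ± 0.27, SE, adjusted p = 0.0349), Glul, glutamine synthetase (-1.45 ± 0.23, SE, adjusted p = 0.0246), and Pdcd4 (-1.37 ± 0.22, SE, adjusted p = 0.0247) completed the 10 largest decreases with mt-Nd3 (-1.56 ± 0.26, SE, adjusted p = 0.0296). The mitochondrial mt-Nd3 stood at 911 and 576 CPM and 304 and 187 CPM, and at 40.3 CPM in the first WT library. The median share of mitochondrial UMIs in the chosen cells was 3.16% and 2.94% in WT and 2.58% and 2.28% in Grhl3-/-, with 1.15% in the first WT library. Its part in these decreases was not tested.

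**Figure D4:**
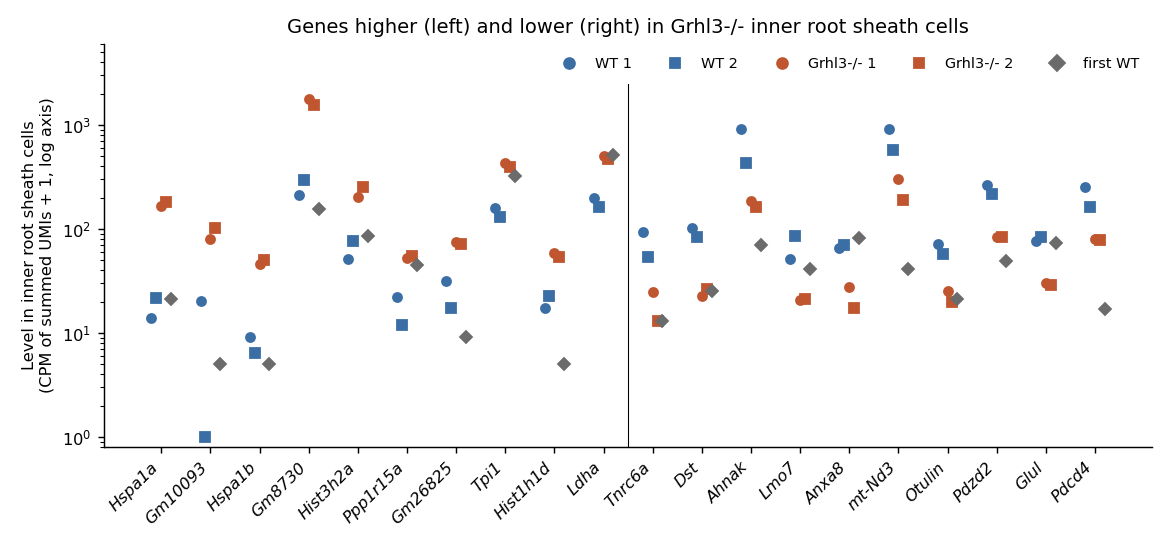
Level in inner root sheath cells (CPM of summed UMIs plus 1, log axis) of the 10 largest increases (left of the line) and 10 largest decreases (right) in Grhl3-/- among genes past the test whose average log2 CPM was 5 or more and whose genotypes did not overlap; each point is 1 P0 library. Hspa1a stands at 166 and 182 CPM in the Grhl3-/- libraries and 13.0 and 20.5 CPM in WT, and the first WT library, which was not in the test, lies near the Grhl3-/- points for genes such as Ldha and Tnrc6a.

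Most of the 52 genes changed in the other cells too. Of the 52 genes, 50 had the same sign in the other cells of the same libraries and 43 passed the test there too, where 24.4% of 15577 genes were called. In the first WT library, 30 of the 52 lay nearer to the Grhl3-/- mean than to the WT mean. With the first WT library added to WT, 5 genes passed (Gm8730, Hist3h2a, Krt16, Hspa1b and Hspa1a). With the keratin limit at 20 UMIs per 10,000, 1 gene passed (Gm8730). Leaving out 1 library at a time gave 25 genes without Grhl3-/- 1, 91 without Grhl3-/- 2, 217 without WT 1 and 480 without WT 2.

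Whether the genotype effect differed between the chosen cells and the other cells was tested by a genotype by class term with the library as a block. Each SE was computed back from the test statistic. With 2 libraries per genotype, the SEs and adjusted p-values of this term can understate the spread between libraries. For Ly6g6c, the log2 ratio of chosen to other cells was -3.05 and -1.35 in the WT libraries and 0.28 and -0.59 in the Grhl3-/- libraries. The term passed for 335 of 14603 genes (2.29%), 129 with a higher effect in the chosen cells (0.883%) and 206 with a lower one (1.41%). In the other cells the suprabasal list summed to 10920.5 and 12383 CPM in WT and 3492 and 3182 CPM in Grhl3-/-. The share of other cells with at least 10 UMIs of that list was 50.4% and 46.0% in WT and 46.5% and 41.5% in Grhl3-/-, so the genotypes overlapped in it. That limit is a raw count, and the median UMIs per kept cell were 7448 and 9245 in WT and 9300 and 9976 in Grhl3-/-. The paper reported a larger share of basal cells and almost no terminally differentiated cells in Grhl3-/- epidermis between the follicles at P0. The part of the suprabasal level in these differences was not tested. With cells holding at least 2 Shh UMIs as the comparison instead, 29 genes passed, 26 of them among the 335. A call lost in that comparison does not show that the difference went away. At a keratin limit of 20 UMIs per 10,000, 62 passed, 50 with a higher effect and 12 with a lower one, so the balance of directions turned.

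The S-phase genes moved apart. Of 42 tested, 19 had a lower effect in the chosen cells and 0 a higher one, with a median difference of -0.70 on the log2 scale against -0.0010 over all genes. Rrm2, a subunit of ribonucleotide reductase, stood at 151 and 197 CPM in WT and 119 and 209.9 CPM in Grhl3-/- in the chosen cells, and at 41.0 and 35.2 CPM and 74.0 and 95.7 CPM in the other cells (log2 difference of effects -1.29 ± 0.16, SE, adjusted p = 1.82e-12). Mcm2, of the replicative helicase, stood at 77.8 and 71.1 CPM and 61.1 and 91.8 CPM in the chosen cells and at 29.3 and 28.9 CPM and 55.8 and 73.4 CPM in the others (-1.13 ± 0.22, SE, adjusted p = 3.53e-05). The chosen cells overlapped between genotypes while the other cells did not. Ung, a uracil DNA glycosylase (-1.83 ± 0.22, SE, adjusted p = 4.53e-13), Cdca7 (-1.18 ± 0.21, SE, adjusted p = 3.91e-06) and Tcf19 (-1.28 ± 0.23, SE, adjusted p = 6.61e-06) showed the same direction. With cells holding Shh as the comparison, 1 of the 19 S-phase calls remained and 18 were lost. Ung passed again (-1.48, edgeR adjusted p = 0.00382), and Rrm2 (-0.91, adjusted p = 0.052) and Mcm2 (-0.81, adjusted p = 0.16) did not.

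Some hair matrix and sheath genes also had lower effects in the chosen cells. Dlx4 (log2 difference -1.62 ± 0.30, SE, adjusted p = 1.49e-05), Msx1 (-1.31 ± 0.22, SE, adjusted p = 6.43e-07), Lef1 (-1.03 ± 0.18, SE, adjusted p = 5.39e-06) and Dlx2 (-0.91 ± 0.26, SE, adjusted p = 0.0231) passed, 4 of 13 hair matrix genes, with none higher and a median difference of -0.48 over the list. Of 16 sheath proteins and factors, Cux1 (-0.89 ± 0.13, SE, adjusted p = 1.02e-09), Mt4 (-0.85 ± 0.16, SE, adjusted p = 2.49e-05), Msx2 (-0.73 ± 0.17, SE, adjusted p = 0.00248) and Dlx3 (-0.54 ± 0.16, SE, adjusted p = 0.0268) were lower and Dsc1 was higher, and the median over the list, -0.011, was near that of all genes. Mt4 stood at 157 and 186 CPM in WT and 225 and 172 CPM in Grhl3-/- in the chosen cells, and at 34.2 and 28.0 CPM and 66.3 and 61.3 CPM in the others. Mt1 (-0.55 ± 0.10, SE, adjusted p = 3.06e-05) and Mt2 (-1.04 ± 0.10, SE, adjusted p = 3.24e-21) brought the metallothioneins to 3 of 4, and both passed against cells with Shh as well. In that comparison Cux1 passed too (-0.68, edgeR adjusted p = 0.044), while all 4 hair matrix calls were lost (Dlx4 -1.22, adjusted p = 0.072, Msx1 -0.68, adjusted p = 0.35, Lef1 -0.46, adjusted p = 0.43, Dlx2 -0.78, adjusted p = 0.29), as were those of Mt4 (-0.44, adjusted p = 0.46), Msx2 (-0.42, adjusted p = 0.44), Dlx3 (-0.33, adjusted p = 0.67) and Dsc1 (1.43, adjusted p = 0.67). Odc1, which rose from 38.0 and 43.9 CPM to 163 and 253 CPM in the other cells (edgeR log2 fold change 2.44 ± 0.21, SE, adjusted p = 0.00309), stood at 77.8 and 131 CPM and 152 and 174 CPM in the chosen cells (-1.67 ± 0.17, SE, adjusted p = 5.39e-19).

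Suprabasal and desmosome genes differed the other way. Of 8 suprabasal genes, 5 had a higher effect in the chosen cells (Klf4, Sbsn, Dmkn, Calml3 and Calm4), and of 13 desmosome genes 6 did, with none lower in either list and medians of 1.06 and 0.62. Of 23 cornified envelope genes 1 passed (Cdsn, higher), with a median of 0.14. Sbsn, suprabasin, stood at 69.7 and 191 CPM in WT and 89.0 and 66.1 CPM in Grhl3-/- in the chosen cells, and fell in the other cells from 269 and 325 CPM to 49.6 and 53.6 CPM, where its edgeR log2 fold change was -2.42 ± 0.13 (SE, adjusted p = 0.00145). The log2 difference of effects was 1.80 ± 0.17 (SE, adjusted p = 1.79e-23). By library, the log2 ratio of chosen to other cells for Sbsn was -1.87 and -0.75 in WT and 0.78 and 0.28 in Grhl3-/-. Klk7, a corneodesmosome-cleaving protease, stood at 21.1 and 36.9 CPM and 29.0 and 32.4 CPM in the chosen cells, against 63.7 and 77.2 CPM and 7.17 and 11.2 CPM in the others (3.04 ± 0.29, SE, adjusted p = 7.75e-23). This was the largest higher effect among non-overlapping genes past the test with an average log2 CPM of 5 or more. Klf4, a barrier transcription factor, stood at 92.4 and 215 CPM and 229.5 and 118 CPM, against 249 and 276 CPM and 97.4 and 95.7 CPM (1.60 ± 0.15, SE, adjusted p = 8.35e-23). Dsg1a, a desmosomal cadherin, had a log2 difference of 1.39 ± 0.21 (SE, adjusted p = 8.66e-09), and Dsp, desmoplakin, of 0.77 ± 0.13 (SE, adjusted p = 2.36e-06). Against cells with Shh none of the 5 suprabasal and 6 desmosome calls remained. Sbsn then had an edgeR adjusted p of 0.28, with Klf4 at 0.73 (adjusted p = 0.39), Dsg1a at 0.54 (adjusted p = 0.60) and Dsp at 0.45 (adjusted p = 0.53), and Calml3 turned to -0.22.

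Grhl1 had a higher effect in the chosen cells as well. It stood at 97.3 and 152 CPM in WT and 123 and 107 CPM in Grhl3-/- in the chosen cells, and at 55.3 and 60.6 CPM and 22.4 and 28.0 CPM in the other cells (log2 difference 1.09 ± 0.18, SE, adjusted p = 5.27e-07). Krt79 stood at 477 and 692 CPM and 703 and 505 CPM in the chosen cells and at 699 and 943 CPM and 258 and 320.3 CPM in the others (1.55 ± 0.12, SE, adjusted p = 1.08e-31), and Scd1, a fatty acid desaturase of sebaceous cells, at 19.5 and 26.0 CPM and 61.1 and 52.6 CPM against 55.7 and 53.2 CPM and 42.1 and 26.1 CPM (1.98 ± 0.28, SE, adjusted p = 7.58e-10). Against cells with Shh, Grhl1 was at 0.46 and did not pass (edgeR adjusted p = 0.55), whereas Krt79 (1.3), Scd1 (1.58) and Klk7 (1.93) passed again. Tmem45a (2.62 ± 0.23, SE, adjusted p = 1.6e-25), Psapl1 (2.33 ± 0.37, SE, adjusted p = 7.98e-08), Pcsk2, a prohormone convertase (1.96 ± 0.25, SE, adjusted p = 9.22e-12), Ly6g6c (1.78 ± 0.24, SE, adjusted p = 1.65e-09), Elovl4, which makes the very long fatty acids of barrier ceramides (1.76 ± 0.35, SE, adjusted p = 0.000107), and Tsc22d3, the glucocorticoid-induced leucine zipper (1.69 ± 0.27, SE, adjusted p = 2.07e-07), were the other large differences in this direction. Of these, Psapl1 (1.78, edgeR adjusted p = 0.11) and Ly6g6c (1.20, adjusted p = 0.44) did not pass against cells with Shh, and Tmem45a, Pcsk2, Elovl4 and Tsc22d3 did.

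A last group had a lower effect in the chosen cells, among them genes that fell there. Mycl, a MYC family factor, stood at 120.0 and 108 CPM in WT and 42.4 and 47.2 CPM in Grhl3-/- in the chosen cells, and at 26.1 and 38.1 CPM and 32.6 and 38.6 CPM in the others (log2 difference -1.50 ± 0.22, SE, adjusted p = 2.14e-09). Lfng showed a difference of -1.75 ± 0.36 (SE, adjusted p = 0.000214) and Zbtb16 of -1.82 ± 0.31 (SE, adjusted p = 2e-06). The log2 fold change of Mycl in the other cells was 0.25 ± 0.19 (SE, adjusted p = 0.363). Fst, which encodes the activin and BMP antagonist follistatin, stood at 34.0 and 24.6 CPM and 11.8 and 8.77 CPM in the chosen cells (-1.24 ± 0.32, SE, adjusted p = 0.0176), and the predicted gene 2610524H06Rik had a difference of -1.17 ± 0.30 (SE, adjusted p = 0.00688). Hes1, a Notch target, differed by 0.84 ± 0.15 (SE, adjusted p = 3e-06) in the other direction. Id3, of the BMP list, differed by -0.58 ± 0.14 (SE, adjusted p = 0.00202), and the Wnt list gave Wnt5a (-1.50 ± 0.42, SE, adjusted p = 0.0226), Lef1 and, higher, Dkkl1 (3.69 ± 0.77, SE, adjusted p = 0.000232) among 36 genes. Against cells with Shh, Mycl and Zbtb16 passed again, and the others did not. Among these, 2610524H06Rik (-1.01), Hes1 (0.71) and Id3 (-0.51) had differences near those above, whereas Lfng (-1.10), Wnt5a (-0.87), Dkkl1 (1.92) and Fst (-0.36) had smaller ones (edgeR adjusted p = 0.066 for Hes1 to 0.84 for Fst).

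**Figure D5:**
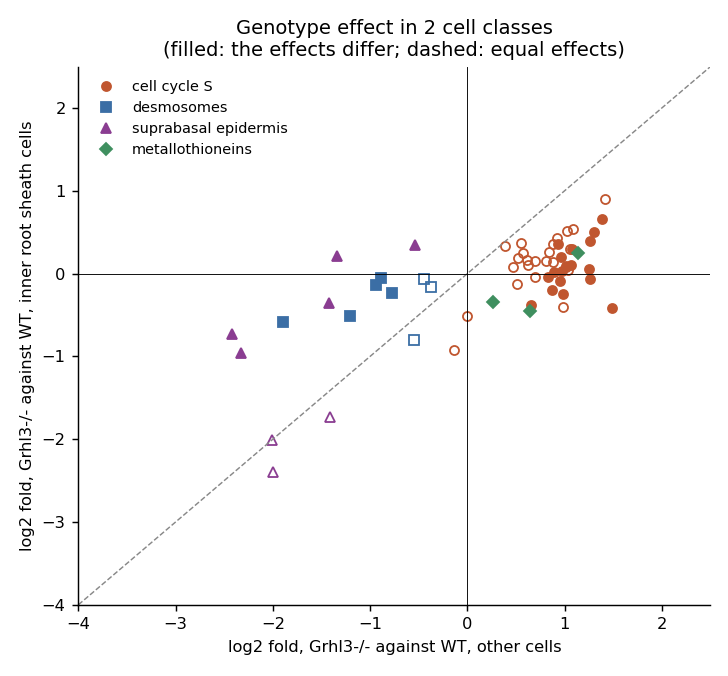
Log2 fold change of Grhl3-/- against WT in inner root sheath cells (vertical) and in the other kept cells (horizontal) for the genes of 4 lists that could be tested in both; filled points passed the test of the difference between the effects and the dashed line marks equal effects. All 42 S-phase genes lie below the line (19 filled), and 5 of 8 suprabasal and 7 of 8 plotted desmosome genes lie above it, among them every filled point of both lists (5 and 5).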

How the data were processed

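Single cells of mouse back skin (whole skin of embryos, separated epidermis at P0) were measured by 10x 3' RNA-seq. The authors deposited, for each library, a filtered matrix of raw UMI counts per gene (27998 genes) and cell barcode, made with Cell Ranger 1.3.1 and mm10 per the submitters' processing notes. From these counts, P0 cells with 900 to 7700 genes and at most 10% mitochondrial UMIs were kept, with 600 to 4800 genes for embryos, and the keratin rule was applied. Doublets were scored with Scrublet in scanpy 1.11.5 and left in. Counts were summed per library and cell class, and the 4 littermate libraries were tested with edgeR 4.0.16 (TMM, filterByExpr, the 4 keratins and Shh left out, quasi-likelihood test, Benjamini-Hochberg threshold 0.05) in R 4.3.3. The difference of genotype effects was the genotype by class term with library as a block. Shares were compared by exact permutation tests in scipy 1.17.1. In level comparisons without a test, a gene needed a mean of 10 CPM over both classes, and ratios used CPM plus 5. The members and the 34 gene lists (496 genes) were chosen with earlier results of these data known. Named were the marker genes, list members past the test, the 10 largest non-overlapping changes each way with an average log2 CPM of 5 or more, the 20 largest ratios over other cells and Grhl1 to Grhl3. Gene places follow GENCODE M21 on GRCm38. On simulated counts for the genotype comparison (7727 genes), 96.4% of 4-fold and 41.0% of 2-fold changes were recovered, and for the difference of effects (14608 genes) 56.1% and 23.5%. Calls among unchanged genes numbered 8 and 2. These counts were drawn with 1 dispersion for all genes and 1 mean profile for all libraries and classes, so recovery in the real data can differ. Alternatives were other keratin, Shh, mitochondrial and doublet limits, thinning, DESeq2 1.42.0, other normalization and filters, a replicate block, the added first WT library, other comparison cells and leaving out each library. Some genes of the lists are not reported here.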

Additional observations from a re-analysis of the deposited data

Results flagged for a closer look

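For 13 of the 52 genes that differed between genotypes in inner root sheath cells, the genotype effect also differed from that in the other cells by the edgeR test of the difference itself, and the values that follow are those log2 differences. Among heat shock genes the difference was 2.44 for Hspa1b, 1.97 for Hspa1a and -0.46 for Hspa8. The histone gene Hist3h2a (0.75), Gcat, an enzyme of threonine breakdown (0.65), and the non-coding Gm26917 (0.57) had a higher effect in inner root sheath cells. A lower effect was found for Krt16 (-2.54), the transcription factor gene Myb (-2.15), Zbtb16 (-1.82), the Notch modifier Lfng (-1.75), Mycl (-1.50), Pdzd2 (-0.76) and Ppia, which encodes cyclophilin A (-0.34). With cells holding at least 2 Shh UMIs as the comparison, 3 of the 13 passed (Zbtb16, Mycl and Myb) and 10 did not (edgeR adjusted p = 0.16 to 0.75). Of those 10, Krt16 (-2.30), Hspa8 (-0.46), Ppia (-0.28), Pdzd2 (-0.58) and Gm26917 (0.45) kept differences near the values above, Hspa1b (1.67), Hspa1a (1.19), Lfng (-1.10) and Hist3h2a (0.52) had smaller ones, and Gcat (-0.23) had the other sign.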

How the results depend on the processing

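The share of inner root sheath cells was higher in Grhl3-/- under every setting run, by 2.72 points at a keratin limit of 5 UMIs per 10,000, 0.341 at a limit of 20, 1.16 without the Shh limit, 0.743 at a mitochondrial limit of 5%, 0.857 without doublet candidates, 1.65 with thinned cells and 1.03 with the first WT library added. Leaving out 1 library gave 0.827 to 0.885. The need for 2 detected keratins was not varied. Cells that reached the keratin limit with 1 keratin only were 22 and 16 in WT, 11 and 9 in Grhl3-/- and 13 in the first WT library. The count of genes differing by genotype (52) was 297 at a limit of 5 and 1 at a limit of 20, 91 without the Shh limit, 69 at the mitochondrial limit of 5%, 352 without a filter on low counts, 27 with sums thinned to equal UMIs, 5 with the first WT library, and 21 or 115 within cells of at least 3 or fewer Krt25 and Krt71 UMIs, both chosen after seeing the data. It was 53 with DESeq2 (33 shared), 52 with RLE normalization, and 25 (without Grhl3-/- 1), 91 (without Grhl3-/- 2), 217 (without WT 1) and 480 (without WT 2). The replicate block gave 205, including all 52, and 263 for the difference of effects. The deviations of same-numbered libraries correlated at -0.046, which is 1 independent value and cannot settle the pairing, and the labels tie no number to a shared batch, so the fit without the block was kept. The count of differing effects (335, 129 higher) was 62 at a limit of 20 (50 higher), 173 with DESeq2 (36 higher), 73 thinned (35 higher), 29 against cells with Shh (13 higher), and 89 (50 higher, without Grhl3-/- 1), 202 (119 higher, without Grhl3-/- 2), 228 (75 higher, without WT 1) and 319 (without WT 2). Directions reversed for Grhl1 by genotype with the first WT library added (0.15) and over left-out libraries (-0.34 to 0.26), for Grhl2 (0.013 with the first WT library, 0.083 in cells with fewer Krt25 and Krt71 UMIs, -0.25 to 0.065 over left-out libraries) and for Grhl3 (-1.02 to 0.27). In the difference of effects they reversed at a limit of 20 for Tgfb2 (0.23) and Krt16 (0.028), against cells with Shh for Dcn (0.072), Calml3 (-0.22) and Gcat (-0.23), and for Dcn over left-out libraries (-0.91 to 0.060). The ratio of Cldn10 over other cells fell to a median log2 of 0.32 at a limit of 20, from 2.03, and that of Mt4 to 0.71, from 2.05. At the same limit the ratio of Hopx rose to 3.01, from 2.61, and that of Gata3 to 1.49, from 1.17. The causes were not tested.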

Other observations

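The rule found no cell among 51655 kept whole-skin cells of the 8 embryonic libraries, which allows a share of up to 0.034% to 0.057% in a single library (3 counts, counting error only), and 1 cell there met the keratin limit before the limit on Shh. At P0 the limit on Shh removed 257 of 775 cells. Some other keratins stood higher in the 32 inner root sheath cells of the first WT library than in those of the other libraries, named after their values were seen, with Krt79 at 2597 CPM against 477 to 703 CPM, Krt14 at 1806 CPM against 234 to 539 CPM and Krt35 at 532 CPM against 74.6 to 174 CPM. Krt15, at 488 CPM against 115 to 496 CPM, did not. In the other cells Krt14 was also higher in that library, at 11184 CPM against 2358 to 3557 CPM.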
